A study of Mus musculus with 24 samples.

Results

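The genes described here are the classical genes of the major histocompatibility complex (MHC) in mouse sciatic nerve and the partners of their products: H2-K1, H2-D1 and B2m of class I, and H2-Aa, H2-Ab1, H2-Eb1, H2-DMa, H2-DMb1 and Cd74 of class II. In the RefSeq annotation 7 of them lie together on chromosome 17 and B2m on chromosome 2. They were chosen by name, and every probe set (a group of short DNA probes against 1 transcript) that lists one of them as its only gene was taken. That gave 23 of 20380 probe sets with 1 gene symbol, for 8 of the 9 genes, out of 12393 genes with a probe set of their own. Class I holds 15 of these probe sets (4 for H2-K1, 9 for H2-D1 and 2 for B2m) and class II 8 (2 for H2-Aa, 3 for H2-Ab1, and 1 each for H2-Eb1, H2-DMa and Cd74). H2-DMb1 has none of its own: 2 probe sets list it together with its neighbour H2-DMb2, and their values are given as shared. Another 3 probe sets list H2-K1 or H2-D1 with other class I genes and are described by their range only.

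Whole sciatic nerves, stripped of their sheath, were profiled on 24 Affymetrix arrays, 2 per group, from mice of 4 genotypes at postnatal day 5 (P5), postnatal day 28 (P28) and 4 months. S63del/Chop null mice carry the S63del mutation and lack Chop. S63del mice carry the mutation alone, Chop null mice lack Chop alone, and wild type (WT) mice have neither change. As background, S63del mice carry a transgene that is active in Schwann cells and serve as a model of an inherited neuropathy. Chop (Ddit3) encodes a transcription factor of the response to misfolded protein. Neither the labels nor the series text used here give the strain, the sex of the mice, or how many of them an array stands for. The replicates are labelled biological, and nothing more is said of how they were made.

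MHC class I molecules sit on nearly all nucleated cells and show peptides from inside the cell to CD8 T cells. Each is a heavy chain (H2-K1, H2-D1) bound to B2m, which the chain needs to reach the surface. Class II molecules sit mainly on macrophages, dendritic cells and B cells and show peptides from engulfed protein to CD4 T cells. H2-Aa with H2-Ab1 forms I-A, Cd74 (the invariant chain) blocks the groove until the molecule reaches the endosome, and H2-DM, a pair of H2-DMa and an H2-DMb chain, exchanges the remaining Cd74 fragment for a peptide. H2-Eb1 is the beta chain of a further class II molecule, I-E. In peripheral nerve, resident macrophages carry class II, and Schwann cells can be made to express it.

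Values are log2 expression as deposited, so a difference of 1 is a doubling. A probe set is called changed when limma, fitted to all 20380 probe sets, gives an adjusted p under 0.05 (Benjamini-Hochberg). In counts of probe sets, higher and lower mean called in that direction. Differences are given ± SE. Levels are compared between arrays for 1 probe set, never between probe sets. Array medians lay between 6.84 and 7.03, but the interquartile range was 2.90 to 3.52 at P28, against 3.77 to 3.83 at P5 and 3.86 to 3.90 at 4 months, and the spread within groups was largest in Chop null at P28 (root mean square SD 0.418). Age cannot be told apart from whatever set the P28 arrays apart. Ddit3 read 6.60 to 7.37 in the 12 arrays of the Chop null genotypes, against 7.61 to 9.59 in the other 12. In whole tissue more cells of a type and more RNA per cell cannot be told apart.

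All 23 probe sets were higher at P28 than at P5, over the 4 genotypes, 8 arrays against 8. Among all probe sets tested 79.8% were called in that comparison and 41.9% were called higher, and the median of the members was 0.96, against 0.050 over all probe sets. At 4 months 20 of the 23 were called higher than at P5 and 0 lower by limma, with 21 at an unadjusted p under 0.05, and the difference was above 0 in all 23. There 57.2% of all probe sets were called and 27.6% called higher, and the medians were 1.48 for the members and -0.012 for all. The step from P28 to 4 months split them: 13 were called higher and 7 lower, where 77% of all probe sets were called, 38.9% higher and 38.2% lower. Most of the array was called between ages, so a call alone sets no member apart.

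Class II gained at both steps. At P28 8 of 8 class II probe sets were called higher than at P5 (median 1.11). At 4 months 7 of 8 were called higher than at P28 (median 0.95), and the difference of the other, H2-Eb1, was also above 0.

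H2-Aa, the alpha chain of I-A, had a lowest, median and highest log2 value of 8.90, 9.24 and 9.60 in the 8 arrays at P5, 9.98, 10.36 and 10.51 at P28, and 11.09, 11.46 and 12.26 at 4 months with its brightest probe set. No 2 ages overlapped. Its differences were 1.12 ± 0.13 for P28 against P5 (adjusted p = 4.88e-07) and 1.26 ± 0.13 for 4 months against P28 (adjusted p = 1.77e-07), which makes 2.39 ± 0.13 or 5.23-fold from P5 to 4 months. The second probe set of H2-Aa gave 2.37 over the same span.

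H2-Ab1, the beta chain of I-A, took the same order of ages in its 3 probe sets. The brightest lay between 7.998 and 8.54 at P5, 9.09 and 9.73 at P28, and 9.60 and 10.90 at 4 months, so that the later ages overlapped. The differences from P5 to 4 months were 1.94 ± 0.13, 2.04 ± 0.13 and 1.95 ± 0.15. The steps within that span differed between probe sets, with 1.10, 0.79 and 0.79 to P28 and 0.84, 1.25 and 1.17 after it.

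Cd74 read 8.34 to 9.26 at P5, 10.22 to 10.78 at P28 and 10.52 to 11.55 at 4 months. Its larger step came first: 1.69 ± 0.13 for P28 against P5 (adjusted p = 5.32e-09) and 0.48 ± 0.13 for 4 months against P28 (adjusted p = 0.00363). After quantile normalization the later step was 0.31 and missed the threshold (adjusted p = 0.0620). H2-Eb1 read 5.68 to 6.14 at P5, 6.64 to 7.17 at P28 and 6.65 to 7.30 at 4 months. It was 0.93 ± 0.10 higher at P28 than at P5, and its later ages differed by 0.058 ± 0.10 (adjusted p = 0.600), with ranges that overlap almost wholly. The I-A chains thus passed the test at both steps and H2-Eb1 at the first, and the difference between their courses was not tested. H2-DMa, the peptide editor's alpha chain, had 1.95 ± 0.09 and 0.26 ± 0.09 for the same steps (adjusted p = 0.0175 for the second). The second call was lost after quantile normalization (0.052, adjusted p = 0.632), with array weights (adjusted p = 0.0952), without WT 4 months replicate 2 (adjusted p = 0.0509) and without S63del/Chop null 4 months replicate 1 (adjusted p = 0.0552).

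**Figure D1:**
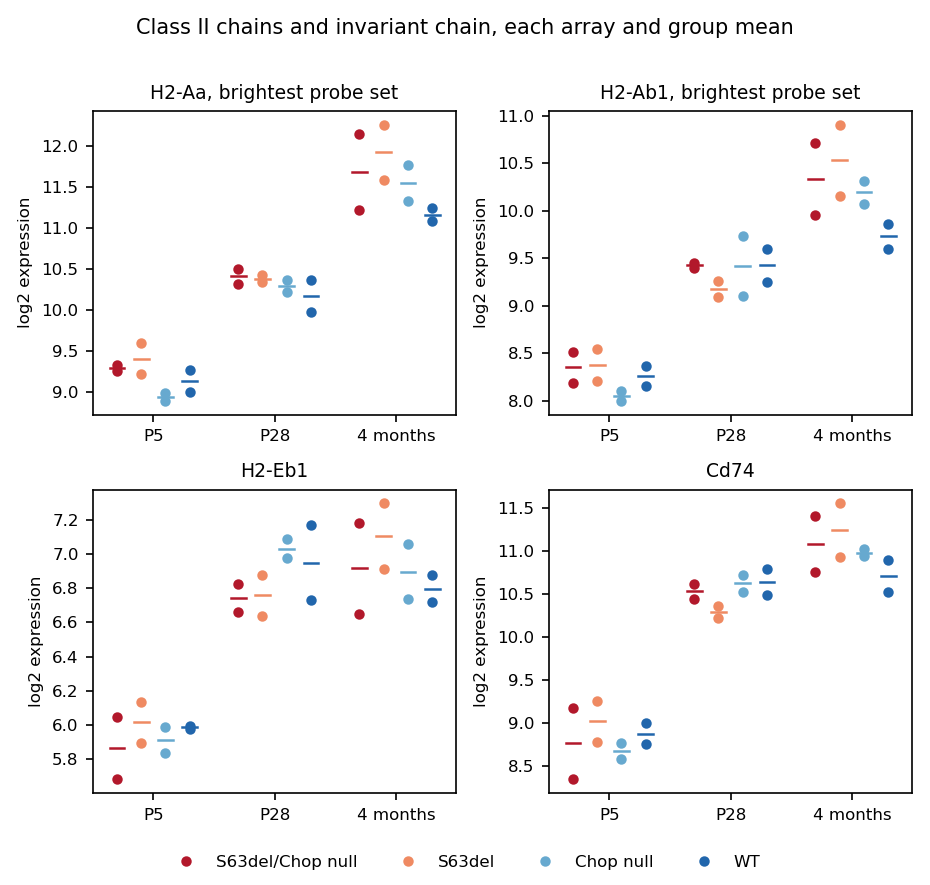
Log2 expression of H2-Aa, H2-Ab1 (brightest probe set of each), H2-Eb1 and Cd74 in every array (points) with group means (lines), for S63del/Chop null, S63del, Chop null and WT from left to right at each age. Levels at P28 and 4 months lie above P5, and at 4 months the upper S63del and S63del/Chop null arrays stand above the Chop null and WT arrays.

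Promoters of class II genes share a set of short elements, called X, X2 and Y, bound by factors that recruit the co-activator CIITA, and class I promoters carry related elements and a site for interferon regulatory factors. The 250 bases before the start of H2-DMb1, H2-Aa and H2-Eb1 are shown because H2-Aa and H2-Eb1 rose with age and the probe sets that list H2-DMb1 differed between genotypes, written 5′ to 3′ in the sense of the gene, from RefSeq's table for GRCm38.p6, with matches to 4 short motifs in capitals. The motifs searched on both strands were GATTGG (core of Y), AACNGATG (core of X), TGACG (core of X2) and AANNGAAA (core of an interferon regulatory factor site).
H2-DMb1, chr17:34152941-34153190 (plus strand): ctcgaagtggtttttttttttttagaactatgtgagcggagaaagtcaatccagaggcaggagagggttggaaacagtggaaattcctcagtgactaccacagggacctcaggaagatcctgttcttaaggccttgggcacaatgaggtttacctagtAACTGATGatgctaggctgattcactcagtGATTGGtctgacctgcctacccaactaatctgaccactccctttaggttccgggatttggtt
H2-Aa, chr17:34287824-34288073 (minus strand): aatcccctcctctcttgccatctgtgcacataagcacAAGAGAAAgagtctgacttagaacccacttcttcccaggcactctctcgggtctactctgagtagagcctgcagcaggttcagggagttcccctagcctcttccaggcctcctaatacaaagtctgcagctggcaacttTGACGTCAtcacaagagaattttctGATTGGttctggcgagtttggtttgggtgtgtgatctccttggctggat
H2-Eb1, chr17:34305617-34305866 (plus strand): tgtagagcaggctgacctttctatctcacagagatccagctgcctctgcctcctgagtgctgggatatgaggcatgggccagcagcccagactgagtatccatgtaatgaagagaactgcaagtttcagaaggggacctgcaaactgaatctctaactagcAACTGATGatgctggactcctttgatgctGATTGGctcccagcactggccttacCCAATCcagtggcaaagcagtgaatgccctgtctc

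H2-DMb1 and H2-Eb1 each hold an X core followed by a Y core, at bases 92 to 85 and 62 to 57 before the start in H2-DMb1, and at bases 89 to 82 and 60 to 55 in H2-Eb1, which has another Y core on the opposite strand at bases 35 to 30. Among 32851 promoter windows of the same length 0.25% hold both cores, 1.98% the X core and 14.6% the Y core. H2-Aa holds a Y core at bases 49 to 44 and a palindrome in which TGACG matches on both strands with overlap (bases 74 to 67), besides an interferon factor core at bases 213 to 206. TGACG is in 17.8% of all windows and AANNGAAA in 21.3%. These are matches of letters and say nothing of binding in nerve. Of the 9 genes 7 have a start in the table. H2-K1 and H2-DMa have 2 starts each there and are not shown because the measured transcript is not tied to either, and H2-Ab1 and Cd74 are named only.

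Class I also rose after P5, and then its probe sets parted. At P28 15 of 15 were called higher than at P5 (median 0.93), and at 4 months 6 were called higher than at P28 and 7 lower (median -0.068).

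H2-D1, a class I heavy chain, read 11.00, 11.14 and 11.49 (lowest, median and highest of 8 arrays) at P5, 11.98, 12.13 and 12.36 at P28, and 12.62, 12.72 and 12.80 at 4 months in its brightest probe set. The ages did not overlap, and the differences were 0.97 ± 0.06 for P28 against P5 and 0.57 ± 0.06 for 4 months against P28. The next 3 probe sets of H2-D1 had later gains of 0.60 to 0.76. The other 5 are dim (mean level under the 40th percentile of all probe sets) and took another course: 4 of them were called lower at 4 months than at P28, with differences of -0.65 to -0.35, and the fifth differed by -0.0017. After quantile normalization 2 of these 4 lost the call, at -0.11 (adjusted p = 0.177) and -0.20 (adjusted p = 0.0656). The mean of all dim probe sets was also highest at P28, at 4.83 to 5.23. It was 4.72 to 4.75 at P5 and 4.67 to 4.73 at 4 months. The part of this shift in the values of the 5 dim probe sets of H2-D1 was not tested.

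H2-K1, the other heavy chain, had 10.56 to 11.10 at P5, 11.38 to 11.98 at P28 and 12.29 to 12.53 at 4 months in its brightest probe set, gains of 0.92 ± 0.07 and 0.72 ± 0.07. Its 3 other probe sets rose more by P28 (1.80, 1.37 and 2.35) and were then called lower at 4 months, with differences of -0.32, -0.16 and -1.49. The call at -0.16 was lost with array weights (adjusted p = 0.0707) and without Chop null 4 months replicate 1 (adjusted p = 0.0505). The dimmest of them read 5.33 to 5.74 at P5, 7.47 to 8.84 at P28 and 6.09 to 6.61 at 4 months, and the value of 8.84 was that of Chop null replicate 2. The direction of H2-K1 and H2-D1 between P28 and 4 months thus depends on the probe set, and those of H2-D1 that were called lower are all dim. Heavy chain genes are close copies of each other, so a probe set named for one may also read others. The 3 probe sets that list H2-K1 or H2-D1 with other class I genes ranged from 4.19 to 9.89.

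B2m read 12.27 to 12.57 at P5, 12.71 to 13.17 at P28 and 13.25 to 13.37 at 4 months in its first probe set, with no overlap between ages. Its gains were 0.54 ± 0.06 and then 0.33 ± 0.06. The second probe set gained 0.99 ± 0.05 by P28 and did not change by the test after it (-0.068 ± 0.05, adjusted p = 0.260). From P5 to 4 months the 2 probe sets of B2m gave nearly equal values, 0.87 and 0.92.

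**Figure D2:**
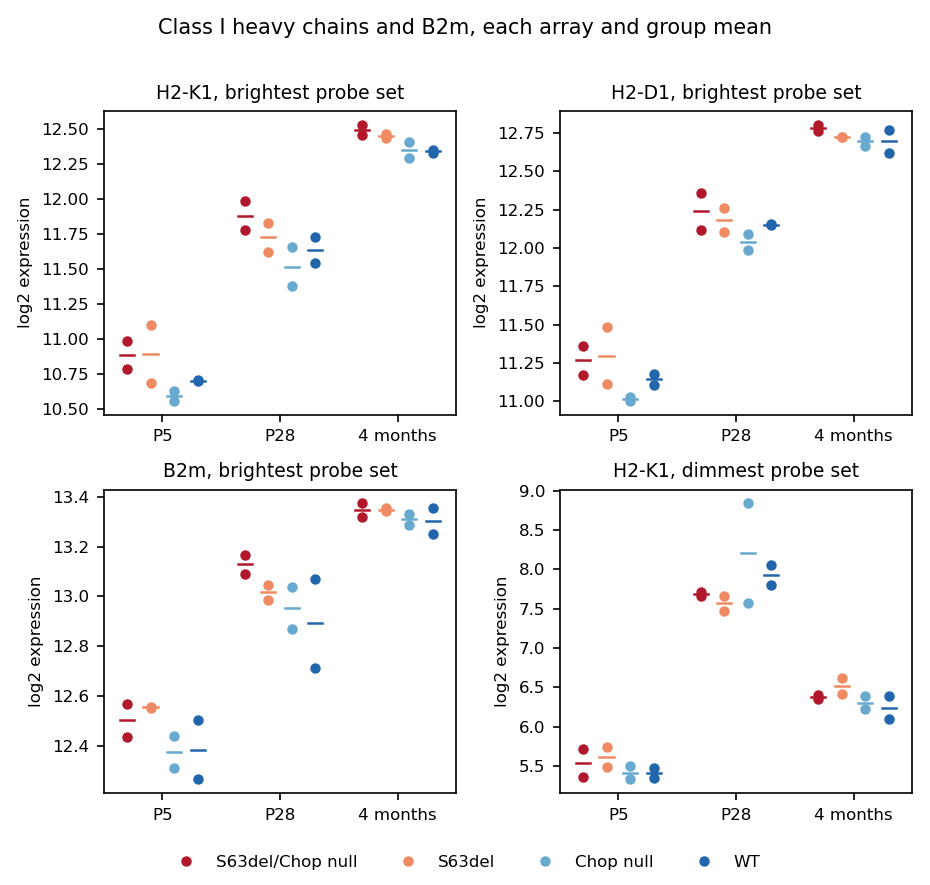
Log2 expression of the brightest probe sets of H2-K1, H2-D1 and B2m and of the dimmest probe set of H2-K1 in every array (points) with group means (lines), for S63del/Chop null, S63del, Chop null and WT from left to right at each age. The first 3 step up at both intervals, while the dimmest probe set of H2-K1 peaks at P28 (7.47 to 8.84).

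**Figure D3:**
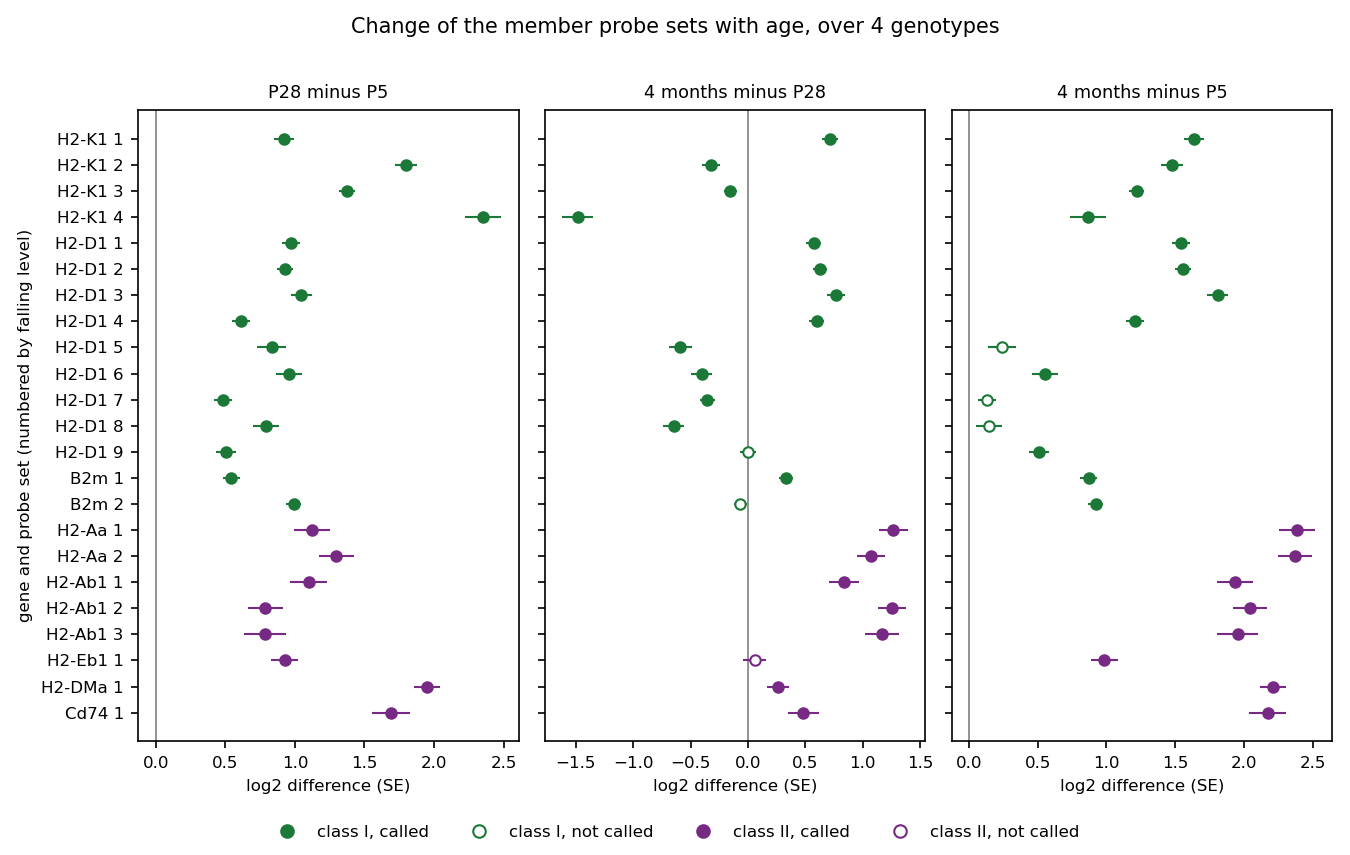
Log2 difference between ages, over the 4 genotypes, for each of the 23 probe sets, numbered within a gene from the brightest down (points, with SE bars; filled when called by limma at an adjusted p under 0.05). All 23 are above 0 for P28 minus P5, and class I probe sets lie on both sides of 0 for 4 months minus P28.

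The windows before H2-D1 and B2m are shown in the same way, since their brightest probe sets rose at both steps.
H2-D1, chr17:35262844-35263093 (plus strand): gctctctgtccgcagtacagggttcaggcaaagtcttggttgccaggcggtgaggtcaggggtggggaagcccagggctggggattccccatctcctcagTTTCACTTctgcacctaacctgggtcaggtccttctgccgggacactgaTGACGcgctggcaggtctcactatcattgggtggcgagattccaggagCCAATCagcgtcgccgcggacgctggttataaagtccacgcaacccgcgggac
B2m, chr2:122147437-122147686 (plus strand): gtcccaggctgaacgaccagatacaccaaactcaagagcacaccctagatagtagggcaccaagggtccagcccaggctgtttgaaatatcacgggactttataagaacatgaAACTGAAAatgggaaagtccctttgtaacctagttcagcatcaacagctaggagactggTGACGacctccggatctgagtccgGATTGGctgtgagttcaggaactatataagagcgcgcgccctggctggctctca

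Both hold TGACG once, at bases 101 to 97 (H2-D1) and 78 to 74 (B2m) before the start, and an interferon factor core, on the opposite strand in H2-D1 (bases 150 to 143) and on the gene's own strand in B2m (bases 137 to 130). Each also holds a Y core, on the opposite strand in H2-D1 (bases 53 to 48) and on the gene's own in B2m (bases 54 to 49).

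The rest of the antigen presentation machinery was read from lists. Of all probe sets 79.8% were called at P28 against P5, with 41.9% called higher. At 4 months against P5 57.2% were called, with 27.6% called higher, so a call alone sets no list apart. Of 21 probe sets for the class I pathway (12 of 14 listed genes measured: peptide loading, transport and the immunoproteasome), 14 were higher and 2 lower at P28 than at P5, with a median of 0.26. Tapbp, which holds empty class I molecules at the peptide transporter, gained 1.29 ± 0.06 and Tap2, a transporter subunit, 0.56 ± 0.06. From P5 to 4 months 9 were higher and 5 lower (median 0.09), and Psmb8, an immunoproteasome subunit, gained 1.45 ± 0.07. Of 12 probe sets for other class I and class I-like genes 8 were higher and 3 lower at P28 (median 0.62), among them Fcgrt, the neonatal Fc receptor (1.02 ± 0.06), H2-M3, which shows formylated peptides (1.09 ± 0.07), and Cd1d1, which shows lipids (1.40 ± 0.14). Of 27 for the class II pathway 16 were higher and 5 lower at P28 (median 0.31). Ctsb, an endosomal protease, gained 0.76 ± 0.05, while Nfyb and Rfxap, which encode subunits of factors that bind the Y and X elements, gave -1.15 ± 0.06 and -1.07 ± 0.07.

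The brighter probe set of Ciita, the class II co-activator, was dim (the 16.1 percentile of all levels), with 4.08 to 4.50 at P5, 4.50 to 5.58 at P28 and 4.26 to 4.53 at 4 months. Ifng, the cytokine that induces Ciita in most cells, was at the 3.95 percentile. Of 33 probe sets of the interferon response 21 were higher and 5 lower at P28 than at P5 (median 0.30), and 22 higher and 6 lower at 4 months (median 0.91). Among all probe sets 79.8% were called at P28 against P5 (41.9% higher) and 57.2% at 4 months against P5 (27.6% higher). Ifit3 gained 1.88 ± 0.08 by P28 and 2.61 ± 0.08 by 4 months, and Ifitm3 1.24 ± 0.05 and 1.32 ± 0.05. Both are induced by interferons.

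Marker lists of the cells that could carry these genes moved with age too. Of 30 macrophage probe sets 23 were higher and 4 lower at P28 than at P5, and their mean level was 8.12 to 8.28 at P5, 8.55 to 8.89 at P28 and 8.25 to 8.61 at 4 months. It was thus highest at P28, whereas the I-A chains were highest at 4 months. Dendritic cell and costimulation markers were higher for 16 of 21 and lower for 1 at P28 (mean levels 5.21 to 5.40, 5.72 to 6.06 and 5.62 to 5.88 at the 3 ages). B cell markers were higher for 17 of 19 and T and NK cell markers for 18 of 18. Neither list had a lower one, and 41.9% of all probe sets were called higher there. Mean levels at the 3 ages were 4.66 to 4.79, 5.18 to 5.76 and 4.81 to 5.24 for the B cell list. They were 4.35 to 4.44, 4.77 to 5.40 and 4.39 to 4.63 for the T and NK cell list. The mean of the dim probe sets was highest at P28 too, at 4.83 to 5.23, against 4.72 to 4.75 at P5 and 4.67 to 4.73 at 4 months. Its part in these counts was not tested. Of the defining markers of B, T and NK cells Cd79a, Ms4a1, Cd3g and Ncr1 were dim, at percentiles of 20.4, 10.5, 14.4 and 13.2. Adgre1, Cd68 and Csf1r of macrophages were at 66.6, 73.8 and 97.4. Of the dendritic cell markers Itgax was dim, at 26.6, and Flt3 and Zbtb46 were at 44.5 and 45.2. Percentiles of different probe sets do not compare numbers of cells. The T cell marker Cd3e was not dim (percentile 43.9) and read 6.13 to 6.35 at P5, 6.85 to 7.89 at P28 and 6.21 to 6.58 at 4 months. Adipocyte markers rose by a median of 2.55. Even Ifng, at the 3.95 percentile, read 3.19 to 3.87 on this scale, so a value above 0 does not show that a cell type is present. The part of these markers in the age course of the MHC genes was not tested.

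The comparison of genotypes asks what S63del and the loss of Chop do to these genes. Most did not pass the test in any genotype comparison. S63del against WT gave 1 called member at P5, lower, where 1.9% of all probe sets were called. It gave 0 at P28 (3.37% of all), with 1 member at an unadjusted p under 0.05. At 4 months it gave 0 in limma (0% of all), with 5 at an unadjusted p under 0.05. Chop null P28 replicate 2 and WT 4 months replicate 1 were doubted for the spread of their groups in earlier results. Without them 1 WT array is left at 4 months, so calls of that fit are no result about the members. Over the 3 ages, 6 arrays against 6, S63del against WT gave 1, lower (5.29% of all).

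The 1 called member was H2-DMa, the alpha chain of the peptide editor. At P5 it read 7.26 and 6.88 in S63del/Chop null, 7.36 and 6.86 in S63del, 8.67 and 8.52 in Chop null, and 8.74 and 8.72 in WT. Both S63del genotypes lay below both others with a gap of 1.16. How many of all probe sets separate in this way was not counted. In a fit of both S63del genotypes against both others 4.94% of all probe sets were called at P5. S63del against WT gave -1.62 ± 0.19, or 3.08-fold lower (adjusted p = 7.99e-05), and S63del/Chop null against Chop null gave -1.53 ± 0.19 (adjusted p = 0.000215). Both calls held in all 14 alternative analyses. S63del/Chop null against S63del gave -0.038 ± 0.19. Over the 3 ages S63del against WT gave -0.84 ± 0.11 (adjusted p = 0.000252).

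At P28 H2-DMa read 9.32 and 9.36 in S63del/Chop null, 9.69 and 9.40 in S63del, 10.29 and 10.12 in Chop null, and 10.31 and 10.14 in WT. Both S63del genotypes again lay below both others, and the share of all probe sets that separate in this way was not counted. In a fit of both S63del genotypes against both others 24.3% of all probe sets were called at P28. S63del/Chop null against Chop null gave -0.86 ± 0.19 (adjusted p = 0.00925). That call was lost without S63del/Chop null replicate 2 (adjusted p = 0.0541), with array weights (adjusted p = 0.497) and with the 8 arrays of P28 alone (adjusted p = 0.113). S63del against WT gave -0.68 ± 0.19, which missed the threshold (adjusted p = 0.0569) and passed it in 6 of 13 alternative analyses. At 4 months the values were 10.36 and 9.94 in S63del/Chop null, 9.87 and 10.08 in S63del, 10.03 and 10.08 in Chop null, and 9.996 and 10.38 in WT, and the genotypes overlapped. There S63del against WT gave -0.22 ± 0.19.

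Both S63del genotypes were then set against WT and Chop null, 4 arrays against 4, a comparison added after these values were seen. For H2-DMa that gave -1.58 ± 0.13 at P5 (adjusted p = 9.42e-07), -0.77 ± 0.13 at P28 (adjusted p = 0.00106, and 0.0706 with array weights) and -0.060 ± 0.13 at 4 months, where 4.94%, 24.3% and 0% of all probe sets were called. The effect at 4 months differed from that at P5 by 1.52 ± 0.19 (adjusted p = 0.000256), and by 1.41 ± 0.27 with S63del and WT alone (adjusted p = 0.0287). The call with S63del and WT alone was lost when any of 6 single arrays was left out, without the 2 doubted arrays and without the P28 arrays. The effect at P28 differed from that at P5 by 0.81 ± 0.19 (adjusted p = 0.0296), a call lost when any of 10 single arrays was left out, with quantile normalization and with array weights, and that at 4 months from that at P28 by 0.71 ± 0.19 (adjusted p = 0.0563). From P5 to 4 months H2-DMa gained 2.21 ± 0.09 over the 4 genotypes, and more in the S63del genotypes, which were lower at P5.

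The probe sets shared by H2-DMb1 and H2-DMb2, which read the partner chain, were not in the fit. Their values in the same 2 sets of 4 arrays are given as a description, with no p-value. The grouping was taken up after the values were seen. At P5 the dimmer one averaged 5.60 ± 0.18 in the S63del genotypes and 6.09 ± 0.16 in WT and Chop null (SD, n = 4 each), and at P28 it averaged 7.13 ± 0.08 in the S63del genotypes and 8.03 ± 0.17 in WT and Chop null. The brighter averaged 6.19 ± 0.20 in the S63del genotypes and 6.85 ± 0.20 in WT and Chop null at P5. At P28 it averaged 8.47 ± 0.10 in the S63del genotypes and 9.29 ± 0.08 in WT and Chop null. At both of these ages every S63del array lay below every other array in both probe sets. How many of all probe sets separate in this way was not counted. In the fit of the same 2 sets of arrays 4.94% of all probe sets were called at P5 and 24.3% at P28. At 4 months the differences were -0.025 and -0.12, and the groups overlapped.

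**Figure D4:**
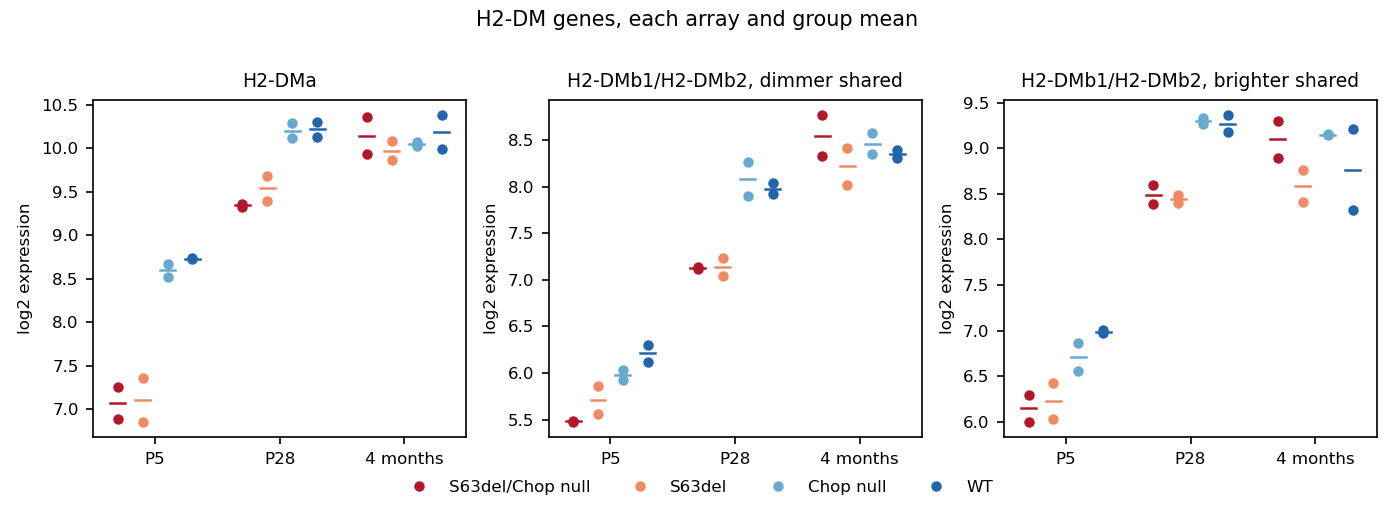
Log2 expression of H2-DMa and of the 2 probe sets shared by H2-DMb1 and H2-DMb2 in every array (points) with group means (lines), for S63del/Chop null, S63del, Chop null and WT from left to right at each age. At P5 and P28 both S63del genotypes lie below WT and Chop null in all 3 panels, and at 4 months they overlap.

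No other class II probe set was called lower at P5. The remaining 7 differed by -0.0071 to 0.35 between the S63del genotypes and the others, and 0 of them was called by limma or had an unadjusted p under 0.05. H2-Aa averaged 9.41 ± 0.27 in S63del and 9.14 ± 0.19 in WT (SD, n = 2 each), and Cd74 9.02 ± 0.34 in S63del and 8.87 ± 0.17 in WT. Neither difference passed the test. The genes around H2-DMa on chromosome 17 were read as well, a choice made after its values were seen. Of 14 other protein coding genes within 100 kb 12 had probe sets of their own, 16 in all, and 0 of them was called lower or higher in limma at P5, with differences from -0.082 to 0.26 between the S63del genotypes and the others. Brd2, which overlaps H2-DMa in the annotation, differed by 0.12 ± 0.11 and -0.015 ± 0.17. At P28 1 of the 16 was higher, Slc39a7, a zinc transporter (0.44 ± 0.10, adjusted p = 0.0052), and 0 lower. In this comparison 4.94% of all probe sets were called at P5 and 24.3% at P28. Counts this small among 16 probe sets are thus no result about the neighbours. A probe set for H2-DMb2 alone differed by -0.048 ± 0.14 at P5 and -0.38 ± 0.14 at P28 (adjusted p = 0.0501). It differed by 0.38 ± 0.14 at 4 months and was not called there. This probe set is dim (mean level 5.34), so its values do not tell which of the H2-DMb genes the shared probe sets follow.

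**Figure D5:**
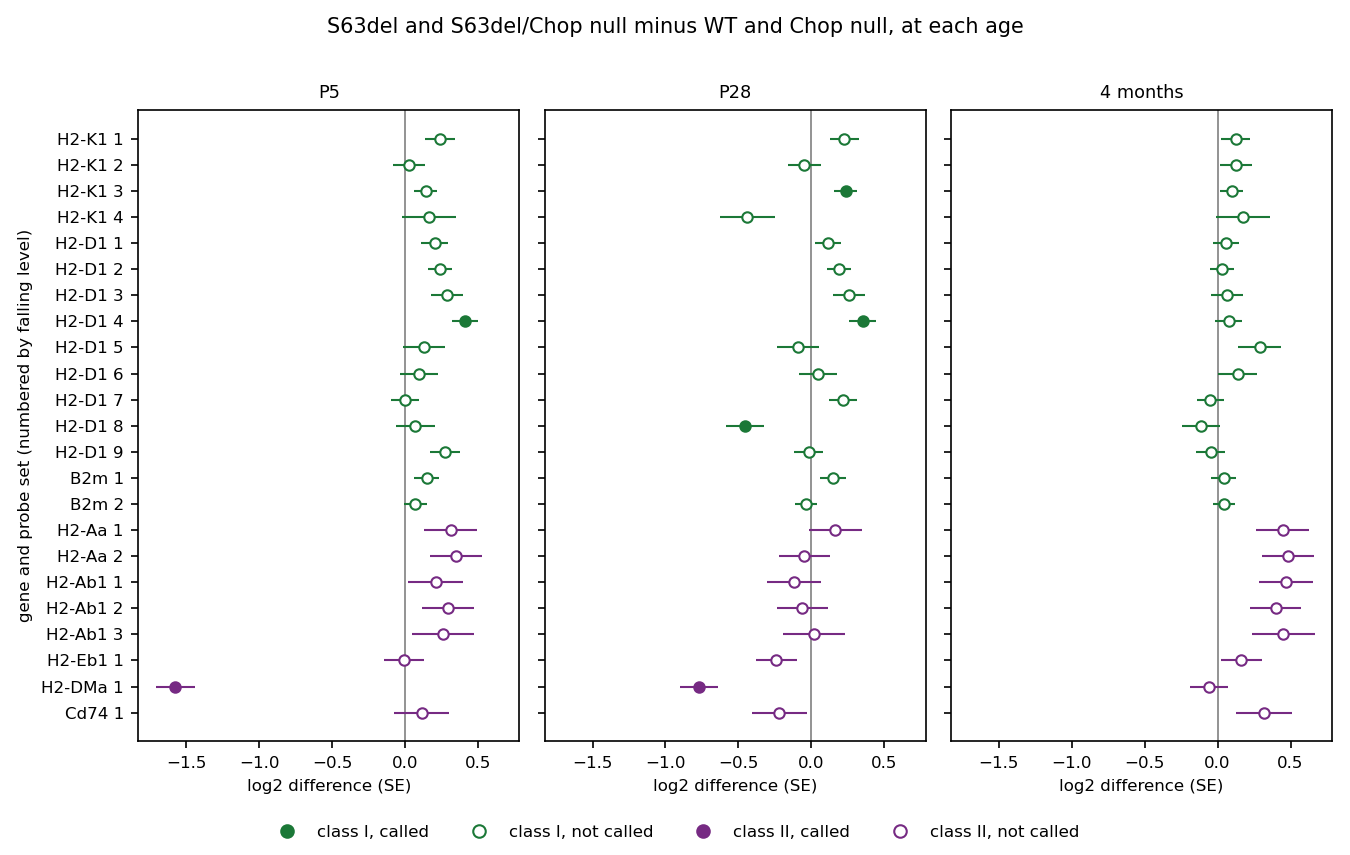
Log2 difference of S63del and S63del/Chop null from WT and Chop null at each age for each of the 23 probe sets, numbered within a gene from the brightest down (points, with SE bars; filled when called by limma at an adjusted p under 0.05; the 3 panels share 1 axis). H2-DMa stands apart at P5 (-1.58) and P28 (-0.77) and lies near 0 at 4 months.

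Beyond H2-DMa the calls between genotypes were few. The S63del genotypes against WT and Chop null gave 2 at P5 (4.94% of all probe sets called), H2-DMa and a rise of 0.41 ± 0.09 in the dimmest of the 4 brighter probe sets of H2-D1 (adjusted p = 0.0118), a call lost when any of 4 single arrays was left out. At P28 the same comparison gave 4 (24.3% of all), with H2-D1 up by 0.35 ± 0.09 in that probe set and a difference of -0.45 ± 0.13 in a dim one, and H2-K1 up by 0.24 ± 0.08 in its second dimmest. Each of these 3 calls was lost when any of 2 to 5 single arrays was left out, with quantile normalization, with array weights and with the 8 arrays of P28 alone. At 4 months it gave 0 in limma (0% of all), with 4 at an unadjusted p under 0.05. S63del/Chop null against Chop null gave 1 at P5 (1.35% of all), H2-DMa, and 4 at P28 (15.5% of all), 2 higher (H2-D1, 0.57 ± 0.15 and 0.52 ± 0.13 in 2 probe sets) and 2 lower (H2-DMa and a dim probe set of H2-D1). All 4 of these calls at P28 were lost with array weights and with the 8 arrays of that age alone. At 4 months it gave 0 in limma (0% of all), and 0 at an unadjusted p under 0.05.

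At P28 the members' shares were near or below those of all probe sets, so these counts are no result about MHC genes. Chop null P28 replicate 2 decides part of them: without it the dim H2-D1 probe set differed by -0.18 between S63del/Chop null and Chop null, and with it by -0.61. Without S63del/Chop null P28 replicate 2 that comparison has 0 called members.

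Losing Chop changed no member by the test. S63del/Chop null against S63del gave 0 of 23 at P5, P28 and 4 months in limma, where 0.0147%, 0.00491% and 0.00491% of all probe sets were called, and 0, 1 and 0 members had an unadjusted p under 0.05. The member differences ran from -0.26 to 0.10 at P5, -0.20 to 0.40 at P28 and -0.24 to 0.17 at 4 months. Chop null against WT also gave 0 (0%, 0% and 0.00981% of all at the 3 ages), with 1, 0 and 1 members at an unadjusted p under 0.05. Over the 3 ages the counts were 0 for S63del/Chop null against S63del, 0 for Chop null against WT and 0 for the interaction of S63del and Chop null (0.00491% of all in each), each with 0 at an unadjusted p under 0.05. A p that misses the threshold with 2 arrays a group does not show that the values are equal.

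The S63del effect was also compared between ages for every member. With S63del and WT alone 0 members differed between P28 and P5 (0.402% of all probe sets called, 1 member at an unadjusted p under 0.05), 0 between 4 months and P28 (0.123% of all, 5 members) and 1 between 4 months and P5 (0.231% of all), which was H2-DMa. With both S63del genotypes the counts were 1 (2.64% of all), 0 (2.48% of all, 5 members at an unadjusted p under 0.05) and 1 (1.19% of all), again H2-DMa.

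At 4 months 7 of the 8 class II probe sets averaged higher in S63del than in WT without passing the test, H2-DMa being the exception. Chop null averaged higher than WT in 7 of 8 as well, with a class II median of 0.35. S63del/Chop null averaged higher than Chop null in 8 of 8, with a median of 0.11. These comparisons had 0 called too. H2-Aa read 11.23 and 12.15 in S63del/Chop null, 11.59 and 12.26 in S63del, 11.77 and 11.33 in Chop null, and 11.09 and 11.25 in WT. The highest arrays were replicate 2 of S63del/Chop null and replicate 2 of S63del, and the other array of each group lay below the higher Chop null array. S63del against WT gave 0.76 ± 0.26 for this probe set of H2-Aa (adjusted p = 0.893), 0.80 ± 0.26 for the brightest of H2-Ab1 (adjusted p = 0.887), 0.53 ± 0.27 for Cd74 and 0.31 ± 0.20 for H2-Eb1. The class II median was 0.74, against 0.060 for class I and -0.0013 over all probe sets. The same 2 arrays had the highest mean level of the 30 macrophage probe sets at that age, 8.57 in S63del/Chop null and 8.61 in S63del, against 8.38 to 8.43 in Chop null and 8.25 to 8.28 in WT. Their part in the class II values was not tested.

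Marker lists differed between genotypes at the younger ages in other ways. Of all probe sets 1.9% were called in S63del against WT at P5 and 3.37% at P28. At P5, where H2-DMa was lowest, 0 of 30 macrophage probe sets was called in S63del against WT by limma, and 0 had an unadjusted p under 0.05. Of 25 Schwann cell and myelin probe sets 5 were lower and 0 higher there, including S100b, a Schwann cell calcium-binding protein (-1.06 ± 0.12 and -1.01 ± 0.12), Mal, a myelin membrane protein (-0.51 ± 0.10), and Mbp, myelin basic protein (-0.45 ± 0.09). At P28 4 of 30 macrophage probe sets were higher and 0 lower, among them Trem2, a lipid receptor (0.90 ± 0.17), and Ms4a7 (0.97 ± 0.20), while H2-DMa read lower. The mean macrophage level at P28 was 8.75 to 8.78 in S63del/Chop null, 8.84 to 8.89 in S63del, 8.60 to 8.63 in Chop null, and 8.55 to 8.67 in WT. The 12 endothelial probe sets averaged 7.26 to 7.29 in S63del/Chop null, 7.25 to 7.34 in S63del, 7.49 to 7.57 in Chop null, and 7.68 to 7.71 in WT at P5, so that both S63del genotypes lay below both others, as H2-DMa did. At P28 they averaged 7.81 to 7.97 in S63del/Chop null, 7.66 in both S63del arrays, 7.80 to 7.95 in Chop null, and 8.04 in both WT arrays, and S63del/Chop null overlapped Chop null. At 4 months they lay between 7.95 and 8.16 in the S63del genotypes and between 7.93 and 8.15 in Chop null and WT. In both S63del genotypes against WT and Chop null 3 of the 12 were lower at P5, 2 at P28 and 0 at 4 months by limma, and 0 higher, with 10, 3 and 0 at an unadjusted p under 0.05. Of all probe sets 4.94%, 24.3% and 0% were called in that comparison, so the count at P28 is no result about endothelium. The 23 fibroblast and perineurium probe sets averaged 9.90 to 9.97 in S63del/Chop null, 9.85 to 9.96 in S63del, 10.06 to 10.09 in Chop null, and 10.13 to 10.14 in WT at P5, where 3 were lower and 0 higher in S63del than in WT. The 25 Schwann cell and myelin probe sets averaged 11.02 to 11.12 in S63del/Chop null and 10.97 to 11.04 in S63del at P5. They averaged 11.31 to 11.32 in Chop null and 11.28 to 11.33 in WT. In this list and the fibroblast list, too, both S63del genotypes lay below both others at P5. Which cells hold H2-DMa was not measured, and the part of these shifts in its values was not tested.

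Of the class II pathway list 3 probe sets were higher and 1 lower in S63del than in WT at P28, and 0 of 27 changed at P5 by limma, with 2 at an unadjusted p under 0.05. Among all probe sets 1.9% were called in S63del against WT at P5 and 3.37% at P28. Ctss, the protease that trims Cd74, was 0.96 ± 0.23 higher (adjusted p = 0.0321) and Lgmn, an endosomal protease, 0.68 ± 0.15 higher (adjusted p = 0.0218). The dimmer probe set of Ciita was 0.61 ± 0.13 lower (adjusted p = 0.0211), at 4.22 in S63del and 4.82 in WT, while the brighter one averaged 4.75 in S63del and 4.85 in WT and differed by -0.092 ± 0.19 (adjusted p = 0.835). Of the class I pathway list 2 of 21 were higher and 0 lower at P28: Canx (0.68 ± 0.15) and Calr (0.43 ± 0.10), chaperones of the endoplasmic reticulum that fold heavy chains and many other proteins. Of 33 interferon response probe sets 1 changed in S63del against WT at P5, a rise of 3.03 ± 0.61 in Cxcl10 (adjusted p = 0.0113), a chemokine for T cells. At 4 months 0 members of these lists were called by limma, with 2, 2 and 4 at an unadjusted p under 0.05.

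Skeletal muscle transcripts varied widely between arrays (Acta1 7.03 to 13.20), and the mean of the 16 muscle probe sets at 4 months was 8.61 to 8.97 in S63del/Chop null, 6.96 to 9.01 in S63del, 7.56 to 9.54 in Chop null, and 5.98 to 6.60 in WT. The part of these transcripts in the other values was not tested.

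Genes whose course over the 24 arrays was most like that of the class II members (mean of the brightest probe sets of H2-Aa, H2-Ab1, H2-Eb1 and Cd74) were Bhlhe40 (r = 0.972), Klf9 (r = 0.971), Ephx1 and Fth1 (r = 0.959 each), out of 6419 probe sets that were not dim and whose group means spanned over 1. For class I (H2-K1, H2-D1 and B2m) they were AW112010 (r = 0.987), Mettl7a1 (r = 0.986), Mettl7a2 (r = 0.985) and Cyp2d22 (r = 0.985). Il33 was among the first 8 for both (r = 0.956 for class II and r = 0.981 for class I). These are descriptions over arrays that share the 3 ages, and many genes change with age.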

How the data were processed

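The deposited values are log2 expression of 22690 probe sets in 24 arrays, made by the authors; the scale was read from the values, and the software, background correction and normalization were not given in the sources used here. Of these, 64 control probe sets, 691 with several gene symbols and 1555 with none were left out, which leaves 20380. Symbols were updated through RefSeq's gene table for GRCm38.p6, where 20351 of them matched. A model with 12 group means (12 residual degrees of freedom) was fitted with limma 3.58.1 (statmod 1.5.0, R 4.3.3), tested with moderated statistics and adjusted over all 20380 probe sets (Benjamini-Hochberg, threshold 0.05). It was tested on simulated data first. Dim means under the 40th percentile of mean level. The p-values measure the spread between arrays labelled biological replicates.

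The members and lists were chosen with earlier results of these data known. All member probe sets are named, as are up to 4 per list with the smallest p among those called, and the 8 genes most like each class. The comparisons of both S63del genotypes with WT and Chop null, the description of the shared H2-DMb probe sets by the same arrays, the genes around H2-DMa and the macrophage level by array were added after values were seen. Alternatives were 1 probe set a gene, the mean of a gene's probe sets, no dim probe sets, quantile normalization, an intensity trend with robust estimation, array weights, the arrays of 1 age alone, P28 left out, each array left out, 2 doubted arrays left out (Chop null P28 replicate 2 and WT 4 months replicate 1) and a replicate block. Arrays give no read depth, and their number limits the precision.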

Additional observations from a re-analysis of the deposited data

Results flagged for a closer look

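The S63del effect on H2-DMa differed between ages in 3 comparisons, each tested as a difference of 2 differences by limma. The comparison of both S63del genotypes with WT and Chop null was added after the values were seen. With it, the effect at 4 months minus that at P5 was 1.52 ± 0.19 (adjusted p = 0.000256). That difference was called in 25 of 25 alternative analyses, which reuse the same arrays. The effect at P28 minus that at P5 was 0.81 ± 0.19 (adjusted p = 0.0296), and it was called in 12 of 24. This call was lost with quantile normalization (adjusted p = 0.0560) and with array weights (adjusted p = 0.134). It was lost, at adjusted p of 0.0503 to 0.0887, without any of both WT and both Chop null arrays at P5, replicate 2 of S63del and of S63del/Chop null at P5, WT P28 replicate 2, S63del P28 replicate 1 and both S63del/Chop null arrays at P28. With S63del and WT alone, the effect at 4 months minus that at P5 was 1.41 ± 0.27 (adjusted p = 0.0287), called in 9 of 17. This call was lost without the P28 arrays (adjusted p = 0.0576) and without the doubted arrays. It was lost, at adjusted p of 0.0723 to 0.222, without either WT array at P5, S63del P5 replicate 2, WT 4 months replicate 1 or either S63del array at 4 months.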

How the results depend on the processing

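The fall of H2-DMa in S63del at P5 was called under every alternative run. Of 1481 repeats of the 63 called age changes, 1463 kept direction and call, 13 lost the call and 5 reversed. All reversals came from averaging a gene's probe sets, which joins probe sets that differ in direction: for 4 months against P28, 0.062 for H2-D1 (4 dim probe sets) and -0.31 for H2-K1 (brightest); for the dim H2-D1 probe set at P28, 0.10 in S63del/Chop null against Chop null and 0.069 in both S63del genotypes; and -0.0062 for H2-K1 (second dimmest probe set) in both S63del genotypes at P28. Counted by gene, by 1 probe set or by the mean, called members were 8 and 8 for P28 against P5, 7 and 6 for 4 months against P28, 8 and 8 for 4 months against P5, 1 and 1 in S63del/Chop null against Chop null at P28, and 1 and 1 in both S63del genotypes at P5 and at P28.

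The cause of the following changes was not tested. S63del against WT at P28 had 1 call under 6 alternatives (by gene both ways, without dim probe sets, quantile, trend, 2 doubted arrays out). S63del/Chop null against Chop null had 2 at P5 without dim probe sets, with array weights, without the doubted arrays and without P28, and at P28 2 with quantile normalization, 0 with array weights, 2 without the doubted arrays and 0 with the 8 arrays of the age alone. Both S63del genotypes had 6 at P5 with array weights and 4 with 8 arrays, and at P28 2 with quantile normalization, 0 with array weights and 1 with 8 arrays. The S63del effect at 4 months against P5 had 0 without the doubted arrays and without P28. The effect in both genotypes had 0 for P28 against P5 with quantile normalization and array weights, and 1 for 4 months against P28 with 1 probe set a gene, without dim probe sets, with quantile normalization and with the trend. Leaving out 1 array gave 0 to 5 for S63del/Chop null against Chop null at P28, 0 to 2 for Chop null against WT at P28 and 0 to 1 over the 3 ages, 0 to 1 for the S63del effect at 4 months against P5, 1 to 2 and 1 to 6 for both S63del genotypes at P5 and P28, and 0 to 4 and 0 to 6 for the effect in both at P28 against P5 and 4 months against P28, where the highest came without Chop null P28 replicate 1.

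The replicate numbers did not pair the arrays: 18 correlations of same-numbered deviations ran from -0.456 to 0.286, 5 of them over 0.1. With the replicate block the counts were 23, 20 and 21 for the 3 age comparisons, and H2-K1 in both S63del genotypes at P28 lost its call (adjusted p = 0.0520). Of 108 list counts 36 moved by over 1.5 times with 1 probe set a gene and 30 without the doubted arrays. Among all 20380 probe sets, leaving out the doubted arrays gave 49 calls for Chop null against WT at P28 (30 with quantile normalization), 163 for S63del against WT at 4 months and 399 for both S63del genotypes at 4 months, where all 24 arrays gave 0 each. It gave 2565 for S63del against WT at P28, against 687, and 1002 for S63del/Chop null against Chop null at P28, against 3168. Array weights gave 1474 for S63del against WT at P5, against 387, and 0 for S63del/Chop null against Chop null at P28, against 3168. Leaving out the doubted arrays leaves 1 Chop null array at P28 and 1 WT array at 4 months. Counts without them in comparisons with these groups rest on 1 array there.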
